A study of Mus musculus with 31 samples.

Results

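The histone mark H3K4me1 was compared between mouse lung adenocarcinomas that had lost the gene Nkx2-1 (deleted tumors) and adenocarcinomas that still carried it (positive tumors). The members are the H3K4me1 islands of both tumor types on chromosomes 1 to 19, an island being a stretch of genome that the authors' caller marked as enriched in chromatin immunoprecipitation followed by sequencing. There were 77529 such islands in positive and 65348 in deleted tumors, together 142877 of the 526793 peaks and islands in the 11 lists of the study. Every island that the authors called on these chromosomes was taken, so beyond that calling no measured value chose the members.

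Both groups of tumors grew in mice aged 4 to 7 months whose strain is given as mixed 129/B6. Per the labels, tumors followed intratracheal infection with adenovirus or lentivirus, and tamoxifen was given at 56 or 112 µg per g of body weight. The labels do not assign a virus or dose to a sample, and they name neither the alleles nor the recombinase. Each tumor type had 1 male and 1 female H3K4me1 library, precipitated with the same antibody (Abcam ab8895). Both deposited files of a tumor type were identical and named as merged, so each tumor type gave 1 list. No difference below has a replicate check or a p-value, and mouse, library and tumor type cannot be told apart. Intervals are 95% Wilson intervals, which cover counting error only and treat neighbouring islands as independent. No expression was measured in these samples, so lineage markers could not be checked.

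H3K4me1 is laid down on nucleosomes around enhancers and on the flanks of promoters. An enhancer that carries it without H3K27ac, the acetylation of active enhancers and promoters, is commonly called primed; H3K4me3 marks promoters, and H3K27me3 marks chromatin silenced by Polycomb. Nkx2-1 is a lung lineage factor of the homeodomain class, and Foxa1 and Foxa2 are forkhead factors able to bind nucleosomal DNA. Enhancer marks around such factors are used to read which regulatory elements a tumor of a given lineage keeps available.

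Islands were slightly wider in the deleted-tumor list. The median width was 2400 bp in positive tumors (middle 50% of islands 1600 to 4600 bp) and 2800 bp in deleted tumors (1800 to 5000 bp), and the deleted-tumor median was the larger on 19 of 19 chromosomes. Islands covered 322.7 Mb in positive and 295.1 Mb in deleted tumors and held 35.3 M and 29.4 M reads. Read counts are not scaled for depth, and total library sizes are not given in the sources used here. The median read density, reads in an island per kb of its width, was 89.4 in positive and 78.1 in deleted tumors. Its lower 5% point was 52.2 and 41.8 reads per kb. These densities describe each list and were not compared as levels.

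Wide domains were common to both tumor types. Islands of at least 10000 bp made up 7.75% of the positive list and 8.93% of the deleted list but held 34.4% and 35.5% of the marked bases. The widest positive-tumor islands lay at chr4:81999601-82160600 (161000 bp), chr8:11244001-11398400 (154400 bp) and chr8:129586201-129719000 (132800 bp; all coordinates are mm9). Deleted-tumor H3K4me1 covered 97.5%, 98.8% and 93.5% of these. The widest deleted-tumor islands, at chr8:11266001-11401400 (135400 bp), chr5:93236201-93369200 (133000 bp) and chr9:48527601-48646800 (119200 bp), were covered by positive-tumor islands over 99.1%, 96.7% and 94.5% of their length. H3K4me3 inside these domains was the mark that differed most: over the island at chr4:81999601-82160600 its cover was 34.3% in positive and 16.6% in deleted tumors, while that of H3K27ac was 86.0% and 75.4%. The deleted-tumor H3K4me3 list was also shorter as a whole, at 30230 against 40685 islands. No gene annotation of the mm9 build was used here, so regions are given by position alone.

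Whole islands were absent from the other list in both directions, mostly small ones. An island was called lost when it sat in positive tumors and no deleted-tumor island touched 1 bp of it, and gained in the opposite case. Of positive-tumor islands 17678 were lost, 22.8% (interval 22.5 to 23.1), and of deleted-tumor islands 5489 were gained, 8.4% (8.19 to 8.61). The lost share was above the gained share on 19 of 19 chromosomes, from 18.5% on chromosome 7 to 26.9% on chromosome 14. The order of both shares does not show which direction prevailed, because the positive list is longer and holds more reads. With the positive list reduced to the 65348 densest islands, 17.1% were lost and 16.1% gained, values that equal list lengths bring close together by construction. In bulk tumors, fewer cells with a mark and less of the mark per cell cannot be told apart.

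**Figure D1:**
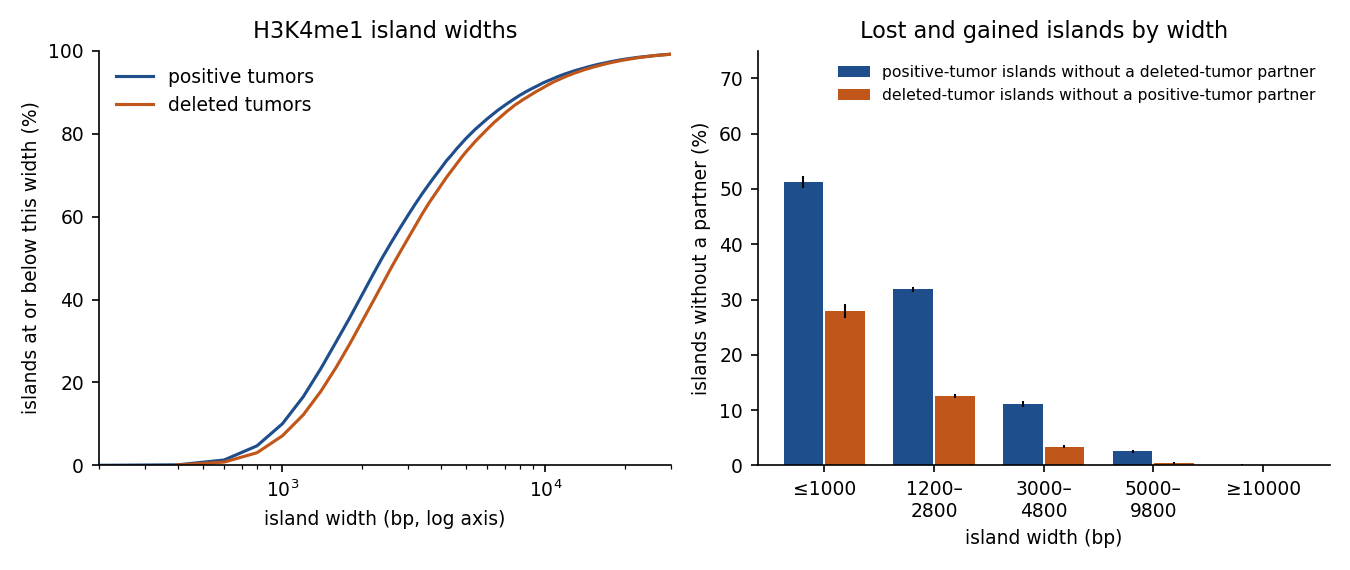
Left, the cumulative share of H3K4me1 islands (percent) at or below each width (bp, log axis, drawn to 30000 bp) in positive and deleted tumors. Right, the share of islands of each width class without any island of the other tumor type, with 95% Wilson intervals; it goes from 51.3% of the narrowest to 0.117% of the widest positive-tumor islands, and from 27.9% to 0 in deleted tumors.

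Loss followed width and density. Among positive-tumor islands of at most 1000 bp 51.3% (50.2 to 52.4) were lost, among those of 1200 to 2800 bp 31.8%, and among those of at least 10000 bp 7 of 6005. Gain took the same course, from 27.9% (26.7 to 29.2) of the narrowest deleted-tumor islands to 0 of 5835 of the widest, which allows a share of up to 0.0514% (3 counts, counting error only). Across 10 equal groups of positive-tumor islands ordered by density, the lost share went from 56.2% to 0.206%. Nearly all large domains thus had a partner in the other list, and islands without a partner were mostly narrow and thin. A wide island offers more bases on which a partner can touch it, so the rule of 1 bp itself favours this order by width. How much of the order comes from the rule was not tested.

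Counted in bases, whole islands made up less of what differed than the ends and inner gaps of matched islands did. Both lists shared 254.8 Mb. Positive-tumor islands had a further 67.9 Mb of their own, of which 32.0 Mb were whole lost islands, 29.5 Mb ends of matched islands and 6.32 Mb gaps inside matched islands. Deleted-tumor islands had 40.3 Mb of their own, of which 9.56 Mb were whole gained islands, 24.98 Mb ends and 5.78 Mb inner gaps. Between the lists, whole islands differed more in size (32.0 against 9.56 Mb) than ends (29.5 against 24.98 Mb) or inner gaps did.

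The 48312 islands that paired one to one, 62.3% of the positive and 73.9% of the deleted list, kept their width on balance. Their median width was 2800 bp in both tumor types, and the median ratio of deleted to positive width was 1 (middle 50%, 0.833 to 1.18). In deleted tumors 44.5% (44.0 to 44.9) were narrower, 42.6% (42.1 to 43.0) wider and 12.9% of the same width. The narrower share was above the wider share on 13 of 19 chromosomes, so chromosomes disagree about this small difference. Of 96624 island ends 25.6% fell on the same base and 56.2% within 200 bp, the caller's window. Paired islands thus did not show the larger median width of the deleted list.

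Splitting and merging nearly mirrored each other. Of the 59851 matched positive-tumor islands 3807 were split, 6.36% (6.17 to 6.56), meaning that several deleted-tumor islands touched 1 of them. A larger number, 8498 or 14.2% (13.9 to 14.5), were merged, meaning that a deleted-tumor island touched at least 1 other positive-tumor island as well. Merging counts every island that is joined and splitting only the island that is divided, so these percentages are not on 1 footing. Counted from the deleted side, 3983 islands (6.65%) joined several positive-tumor islands and 8316 (13.9%) were pieces of a split one. Counted as gaps, 4571 opened and 4563 were filled, with a median length of 1000 bp in both cases. Of these, 36.7% and 40.6% had 800 bp, the smallest gap either list holds, and 86.5% and 89.7% were at most 2000 bp long.

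The islands with the most pieces were wide domains. Those at chr1:36924201-36995800 (71600 bp, 8 Nkx2-1 peaks) and chr3:27081201-27138800 (57600 bp, 3 Nkx2-1 peaks) each met 7 deleted-tumor islands, and the one at chr8:129586201-129719000 (16 Nkx2-1 peaks) met 6. At chr1:36924201-36995800 the cover by H3K27ac was 89.7% in positive and 59.2% in deleted tumors, and that by H3K4me3 was 27.1% and 3.07%. In the opposite direction, deleted-tumor islands at chr7:56524401-56594000 (69600 bp), chr5:122264401-122312600 (48200 bp) and chr2:165453401-165494400 (41000 bp) each joined 7 positive-tumor islands. H3K27ac at chr2:165453401-165494400 covered 66.3% in positive and 97.1% in deleted tumors, with 2 positive-tumor and 5 deleted-tumor Foxa1/2 peaks. At the other joined places H3K27ac was 91.1% against 84.8% on chromosome 7 and 78.8% against 79.3% on chromosome 5.

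Filled gaps differed from other gaps in what lay in them. Of the 16423 gaps of at most 2000 bp in the positive list 24.9% were filled, meaning that 1 deleted-tumor island touched the islands on both sides. With an Nkx2-1 peak in the gap 56.7% (53.6 to 59.8; 554 of 977) were filled, against 22.9% (22.3 to 23.6) without one. With a positive-tumor H3K4me3 island in the gap it was 57.0% (54.6 to 59.4), against 21.4% without, and 839 of the 977 gaps with an Nkx2-1 peak had both. Among gaps with H3K4me3, 63.5% (60.2 to 66.7) of those with an Nkx2-1 peak and 50.1% (46.6 to 53.6) of those without were filled. Among gaps without H3K4me3 the order was the opposite, 15.2% (10.2 to 22.1; 21 of 138) against 21.4% (20.8 to 22.1), with intervals that overlap. Positive-tumor H3K27ac split the gaps in the same way: with it, 60.5% (57.3 to 63.7; 551 of 910) of gaps with an Nkx2-1 peak and 27.1% of those without were filled, and without it 4.48% (1.53 to 12.4; 3 of 67) and 17.4%. The higher filled share at Nkx2-1 peaks was therefore seen at gaps that held H3K4me3 or H3K27ac.

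**Figure D2:**
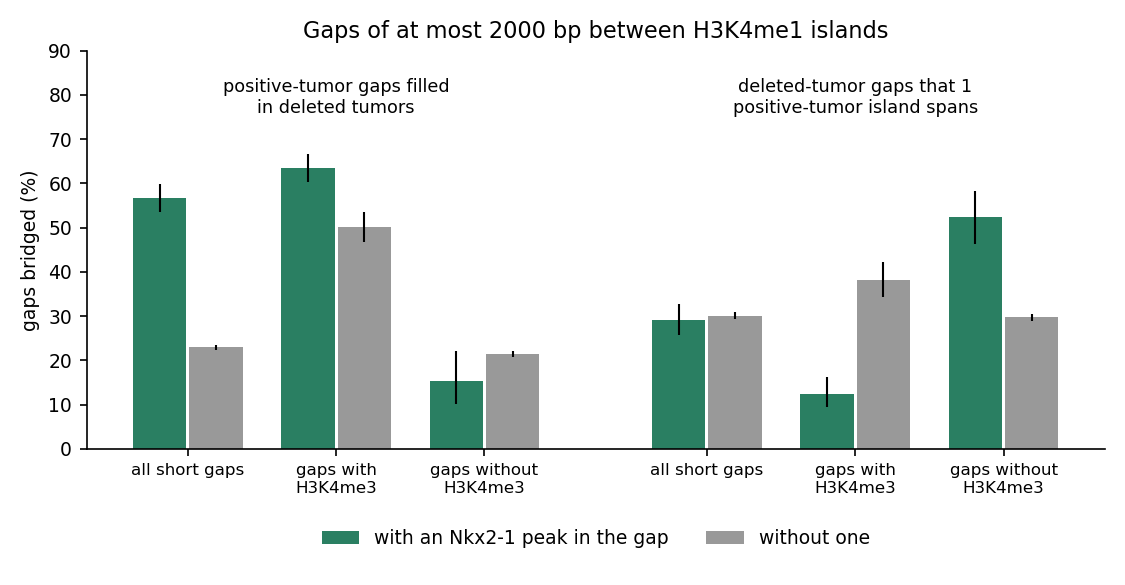
Share (percent, with 95% Wilson intervals) of gaps of at most 2000 bp between neighbouring H3K4me1 islands that 1 island of the other tumor type bridges, with and without an Nkx2-1 peak in the gap, for all short gaps and split by positive-tumor H3K4me3. Filled gaps with H3K4me3 reach 63.5% with an Nkx2-1 peak, and opened gaps without H3K4me3 reach 52.3%.

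Opening was read on the deleted list, where 30.1% of 13160 short gaps lay under 1 positive-tumor island. Over all gaps the shares with and without an Nkx2-1 peak had overlapping intervals, at 29.1% (25.7 to 32.8) with a peak and 30.1% (29.3 to 30.9) without, while classes of gaps went opposite ways. Among gaps of 800 bp 23.8% (19.1 to 29.4) with and 49.98% (48.3 to 51.7) without an Nkx2-1 peak had opened, and among those of 1000 to 2000 bp 32.96% (28.3 to 37.97) and 23.2% (22.4 to 24.1). Without H3K4me3, 52.3% (46.3 to 58.3; 136 of 260) of gaps with an Nkx2-1 peak had opened, against 29.7% (28.9 to 30.6) of those without a peak. With H3K4me3 it was 12.5% (9.45 to 16.3; 45 of 361) against 38.2% (34.3 to 42.4). At Nkx2-1 peaks, filled gaps were thus more frequent with H3K4me3 and opened gaps more frequent without it. Gaps with a positive-tumor Foxa1/2 peak were more often opened, at 44.8% (39.6 to 50.2) against 29.7% without one, and also more often filled, at 46.6% (41.6 to 51.6; 177 of 380) against 24.4%. Gaps with a deleted-tumor Foxa1/2 peak were opened in 13.4% (8.53 to 20.4; 17 of 127) and filled in 54.0% (48.3 to 59.5; 162 of 300). All 4 histone lists come from the same tumor types, and the part of H3K4me3 itself in these shares was not tested.

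To compare signal without a depth scale, the 48312 one-to-one islands were ranked by read density within each tumor type, from 0 to 100 percentile points. Ranks agreed broadly, with a Spearman correlation of 0.72 across islands, which share libraries and are not independent. The median change had a size of 12.6 points. A total of 11129 islands, 23.0% (22.7 to 23.4), moved by at least 25 points: 5464 up, 11.3% of all, and 5665 down, 11.7%. Of the densest 10% in positive tumors 52.8% were in the densest 10% of deleted tumors, and 197 of those 4832 islands were in the lower 50% there. Ranking by read count in place of density gave 14.0% that moved.

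**Figure D3:**
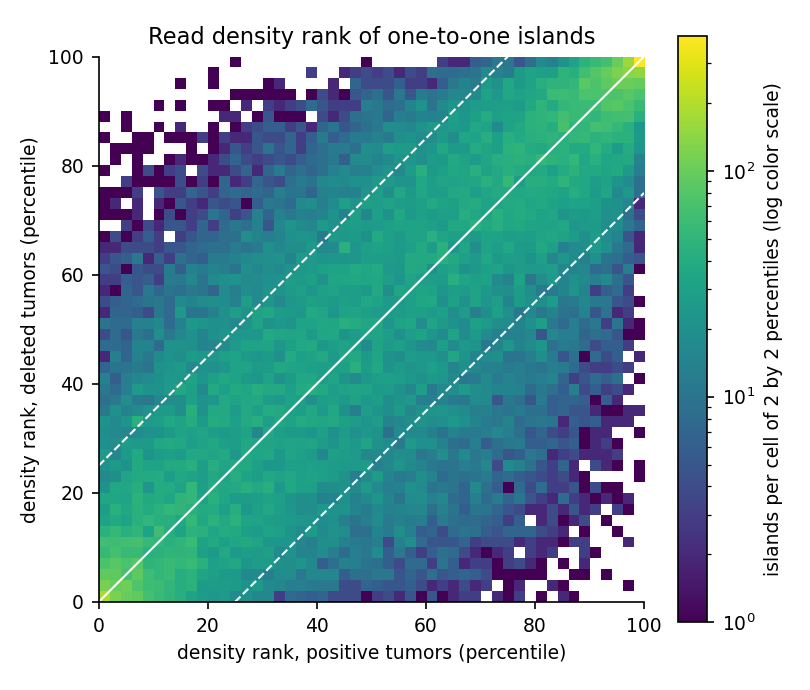
Density rank of the 48312 one-to-one H3K4me1 islands in positive (x) and deleted (y) tumors, in percentiles; color gives the number of islands per cell on a log scale, the solid line equal rank and the dashed lines a change of 25 points. Islands crowd at both corners of the diagonal, and 23.0% lie on or beyond the dashed lines.

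Rank changes differed by the Foxa1/2 peaks on an island. Foxa1/2 peaks were called lost (13093 peaks), kept (9518) or gained (4696) by the same overlap of 1 bp. At 1562 islands whose peaks were gained Foxa1/2 peaks only, the median rank was 38.7 in positive and 59.3 in deleted tumors; the median change was 14.7 points, 32.7% (30.4 to 35.1) moved up by at least 25 points, against 11.3% of all islands, and 2.88% moved down. At 4278 islands with Nkx2-1 and lost Foxa1/2 peaks, the median rank was 69.0 and 52.8, the median change -12.7 points, and 32.5% (31.1 to 34.0) moved down, against 11.7% of all islands, and 4.32% up. The 1544 islands with lost Foxa1/2 peaks but no Nkx2-1 peak stood close to those, at -10.3 points and 25.1% down. Each of these 3 directions held on 19 of 19 chromosomes.

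Islands with Nkx2-1 but no lost Foxa1/2 peak had smaller median rank changes as whole classes, though not at every level of density. At 5876 islands with an Nkx2-1 peak and no Foxa1/2 peak the median change was -1.74 points, below 0 on 19 of 19 chromosomes, with 15.8% down and 7.86% up. At 2414 islands with Nkx2-1 and kept Foxa1/2 peaks it was 0.744 points, with 9 chromosomes up and 10 down. Islands with kept Foxa1/2 peaks alone stood at 4.13 points and islands without any peak at 2.00 points. The Nkx2-1 group without Foxa1/2 was not uniform: in the second of 5 groups by mean rank its median change was -13.6 points (819 islands), and in the fifth, the densest, 0.161 points (1663 islands). In the same second group islands with gained Foxa1/2 peaks stood at 20.7 points and those with lost Foxa1/2 peaks alone at -13.6 points. Islands with Nkx2-1 and lost Foxa1/2 peaks stood at -25.5 points there. In the fifth group these 3 classes stood at 0.597, -4.58 and -3.16 points. A mean rank near either end limits the possible change. Over all islands its median size was 7.52, 17.4, 19.3, 15.4 and 6.15 points from the first to the fifth group. In the first, thinnest group the Nkx2-1 islands without Foxa1/2 stood at -8.25 points (219 islands) and those with lost Foxa1/2 peaks alone at -3.82 points (105 islands). All Foxa1/2 libraries of positive tumors came from male mice and those of deleted tumors from female mice, so Foxa1/2 loss and gain cannot be told apart from sex; the H3K4me1 libraries held both sexes in each tumor type.

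**Figure D4:**
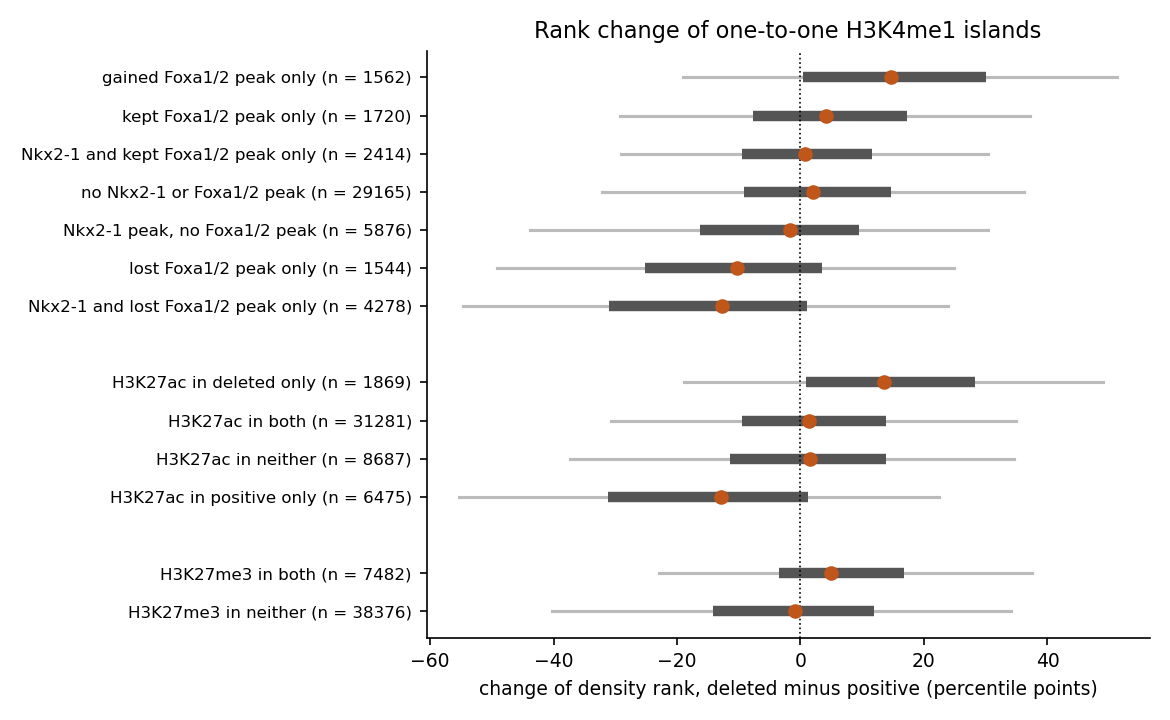
Change of density rank (deleted minus positive, percentile points) of one-to-one H3K4me1 islands by the peaks or islands of other targets on them; points are medians, thick bars the middle 50% and thin bars the middle 90% of islands. Medians run from 14.7 points with gained Foxa1/2 peaks to -12.7 with Nkx2-1 and lost Foxa1/2 peaks and -12.9 with H3K27ac in positive tumors only.

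Width moved with rank in these classes. Islands with gained Foxa1/2 peaks only were wider in deleted tumors in 71.6% of cases and narrower in 19.6%. Islands with Nkx2-1 and lost Foxa1/2 peaks were narrower in 70.3% and wider in 20.9%, with a median width ratio of 0.875. The 29165 islands without any peak, the largest class, were near balance themselves, with 42.1% narrower and 43.7% wider.

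Rank also moved with the active marks. The 6475 islands with H3K27ac in positive tumors only had a median change of -12.9 points, and 32.6% (31.5 to 33.8) moved down; the 1869 islands with H3K27ac in deleted tumors only had 13.5 points, and 29.6% (27.6 to 31.7) moved up. The 31281 islands with H3K27ac in both stood at 1.35 points and the 8687 with it in neither at 1.55. For H3K4me3 the medians were -8.70 points with the mark in positive tumors only (5581 islands) and 15.6 points in deleted tumors only (448 islands). At the 7482 islands with H3K27me3 in both tumor types H3K4me1 stood higher in the order of deleted tumors, by a median of 4.89 points, against -0.909 points at the 38376 islands with H3K27me3 in neither. Across chromosomes the median rank change ran from -1.43 points on chromosome 16 to 3.14 points on chromosome 7, which also had the highest wider share (48.5%), followed by chromosome 11 with 2.14 points and 47.9%.

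Single islands show the range of these moves. The largest rise was at chr9:64954601-64957600, from 166 reads in positive tumors (rank 4.32) to 498 reads in deleted tumors (rank 88.5); H3K27ac cover there was 0% in positive and 100% in deleted tumors, with 1 deleted-tumor Foxa1/2 peak and no other. The third largest, at chr10:28237601-28240200, went from rank 1.31 to 79.998 and from 2600 to 5800 bp, again with 1 Foxa1/2 peak in deleted tumors only. At chr5:125591201-125595200, from rank 2.69 to 82.6, the deleted-tumor island covered only 35.0% of the positive-tumor island, so its density was read over other bases. The largest fall was at chr19:41642001-41646600, from 798 reads (rank 97.3) to 266 reads (rank 10.05); H3K27ac cover was 82.6% and 0%, with 1 Nkx2-1 peak and 2 Foxa1/2 peaks in positive tumors and none in deleted tumors. At chr2:139005001-139008400 rank fell by 83.9 points with 1 Foxa1/2 peak in positive tumors only. At chr2:140942201-140945600 rank fell by 82.7 points with 2 Nkx2-1 peaks and, again in positive tumors only, 1 Foxa1/2 peak. In all 3 falls deleted-tumor H3K4me1 covered at least 94.1% of the positive-tumor island, so the place stayed marked.

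Priming was examined at islands outside H3K27ac and H3K4me3, called unmarked when no island of either active mark, in either tumor type, touched them. These were 16540 positive-tumor islands (21.3%) and 9198 deleted-tumor islands (14.1%). Of the unmarked positive-tumor islands 10122 were lost, 61.2% (60.5 to 61.9), against 12.4% (12.1 to 12.7) of marked ones. Of the unmarked deleted-tumor islands 2507 were gained, 27.3% (26.4 to 28.2), against 5.31% (5.13 to 5.50) of marked ones. Unmarked islands made up 57.3% of all lost and 45.7% of all gained islands. Reducing the positive list to the length of the deleted list gave 6766 lost and 3869 gained, and taking the upper 50% of each list by reads left 1294 and 90. Judged only by the active marks of the tumor type that holds the island, 10200 of 18390 (55.5%) were lost and 2783 of 17306 (16.1%) gained, against 12.6% and 5.63% of marked islands. The 5767 one-to-one islands unmarked in both tumor types had a median rank change of -0.733 points, with 10.5% up and 13.9% down.

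Unmarked islands were small and thin, and their lost share was above that of marked islands at each level of density. Width was not held level in this comparison or in that of all unmarked and marked islands. Marked positive-tumor islands were wider, with a median of 1800 bp when lost and 3200 bp when retained. Lost and gained unmarked islands both had a median width of 1400 bp, against 1800 bp for retained ones in either list. Of lost ones 86.1% and of gained ones 89.5% lay in the lower 50% of their list by density. Retained unmarked islands lay there in 75.96% of cases in the positive list and 86.4% in the deleted list. In the deleted list the median density percentile was 24.7 for gained and 24.5 for retained unmarked islands, so gained ones were not thinner by this median. In the lowest of 10 density groups of the positive list 70.6% (68.9 to 72.1) of unmarked and 46.3% (44.9 to 47.7) of marked islands were lost. In the eighth group the shares were 41.6% (37.0 to 46.3) and 2.55% (2.22 to 2.94), and in the densest group 12.8% (5.60 to 26.7; 5 of 39) and 0.143%. Lost unmarked islands lay a median of 9600 bp from the nearest deleted-tumor island, and 13.8% of them lay beyond 50000 bp. Gained ones lay a median of 5600 bp from the nearest positive-tumor island. These distances run to lists of unlike length, the deleted list being the shorter, and were not scaled for it. Whether an absent island lay just under the caller's limit was not tested.

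Few primed islands that came or went carried a mapped factor. Any Nkx2-1 or Foxa1/2 peak lay on 9.94% (9.37 to 10.5) of lost, 14.9% (14.0 to 15.8) of retained and 8.62% (7.58 to 9.78) of gained unmarked islands. An Nkx2-1 peak lay on 6.30% (5.85 to 6.79) of lost, 7.32% (6.71 to 7.99) of retained and 0.718% (0.455 to 1.13; 18 of 2507) of gained islands. Retained islands are wider, and per Mb of island the overlaps with Nkx2-1 peaks numbered 39.6 in lost, 33.4 in retained and 4.86 in gained islands. A lost Foxa1/2 peak lay on 4.97% of lost, 6.36% of retained and 0.598% of gained islands (31.1, 29.0 and 4.05 overlaps per Mb), and a gained Foxa1/2 peak on 0.178% of lost, 2.31% of retained and 6.54% of gained islands. For Nkx2-1 and lost Foxa1/2 peaks the order of lost and retained islands thus turned between shares and overlaps per Mb, while gained islands were lowest on both scales. For gained Foxa1/2 peaks gained islands were highest on both scales, with 1.11 overlaps per Mb in lost, 10.4 in retained and 44.3 in gained islands.

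Turned around, the lost share of unmarked islands differed by the Foxa1/2 class on them more than by Nkx2-1, while the gained share differed by both. Positive-tumor islands with an Nkx2-1 peak and no Foxa1/2 peak were lost in 64.8% of cases (61.2 to 68.3; 442 of 682), close to the 62.5% (61.7 to 63.3) of islands without any peak. Within 3 equal ranges of density rank the shares were 75.8% against 67.1%, 61.97% against 56.2% and 50.5% against 39.2%, with intervals that overlap except in the thinnest range. Islands with a lost Foxa1/2 peak were lost in 55.2% of cases (52.0 to 58.4). With a kept peak the share was 21.0% (43 of 205, interval 15.96 to 27.1), and with a gained peak 10.8% (18 of 166, interval 6.97 to 16.5). In the same ranges of density the shares with a lost Foxa1/2 peak were 70.9%, 55.4% and 36.2%. Their intervals overlapped those of islands without a peak in each range. With a kept peak they were 39.3%, 15.5% and 5.88% (2 of 34), and with a gained peak 8.64%, 12.7% and 16.7% (1 of 6). In the deleted list 52.4% (46.9 to 57.9; 164 of 313) of unmarked islands with a gained Foxa1/2 peak were themselves gained, against 12.2% with a kept peak, 3.42% with a lost peak and 28.6% with none. For Nkx2-1 sites without Foxa1/2 the gained share was 5.65% (14 of 248, interval 3.39 to 9.25), also below the 28.6% of islands without a peak. The Foxa1/2 classes compare both tumor types, while Nkx2-1 peaks come from positive tumors only.

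**Figure D5:**
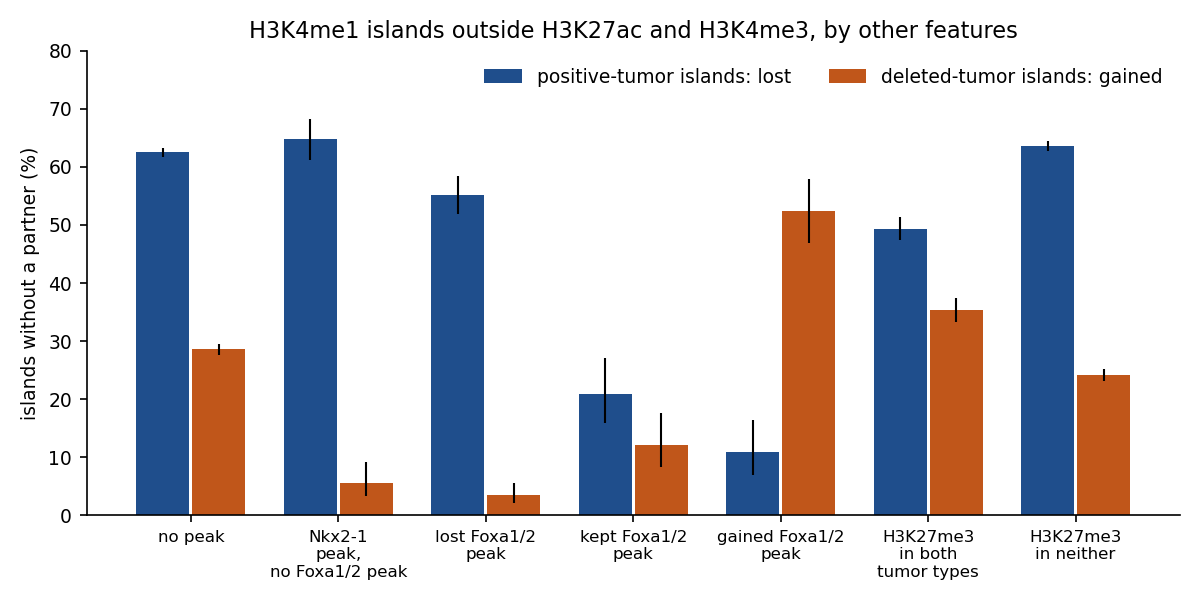
Share (percent, with 95% Wilson intervals) of unmarked H3K4me1 islands without a partner in the other tumor type, for positive-tumor islands (lost) and deleted-tumor islands (gained), by the peaks or H3K27me3 islands on them. With a gained Foxa1/2 peak 10.8% were lost and 52.4% gained, and without any peak 62.5% and 28.6%.

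Gained priming met Polycomb chromatin more often than lost priming. A deleted-tumor H3K27me3 island touched 34.7% (32.9 to 36.6) of gained, 25.5% (24.4 to 26.5) of retained and 17.1% (16.4 to 17.8) of lost unmarked islands. The same order was present with positive-tumor H3K27me3, at 29.3%, 21.5% and 14.2%. H3K27me3 of both tumor types touched 27.9% of gained, 20.3% of retained and 12.5% of lost unmarked islands. Most had H3K27me3 in neither tumor type, at 63.8%, 73.3% and 81.2%. Unmarked positive-tumor islands with H3K27me3 in both tumor types were lost in 49.4% (47.4 to 51.3) of cases, against 63.6% (62.8 to 64.4) with H3K27me3 in neither. Unmarked deleted-tumor islands were gained in 35.3% (33.2 to 37.4) and 24.2% (23.2 to 25.2). Islands of these marks in bulk tumors can come from different cells, and their presence on the same molecules was not tested.

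Among the unmarked islands that were lost, the widest was at chr1:90148601-90167000 (18400 bp, 3375 reads), at a density percentile of 98.5 in its list. It had deleted-tumor H3K27me3 over 54.3% of its width and no peak of either factor. The next, at chr9:72399601-72415400 (15800 bp), chr1:128259801-128271400 (11600 bp), chr2:132382201-132391600 (9400 bp) and chr15:82656001-82665200 (9200 bp), stood at density percentiles of 9.88, 1.30, 13.0 and 25.9 in their list and had no H3K27me3 and no peak. The densest after the first were at chr18:3007401-3010600 (190.6 reads per kb) and chr6:113247801-113249000 (155.8 reads per kb), the latter with 1 Nkx2-1 and 1 positive-tumor Foxa1/2 peak. Of the gained islands the widest, chr4:100751001-100758800 (7800 bp), lay in H3K27me3 (84.6% of it in positive and 94.9% in deleted tumors) and carried 1 deleted-tumor Foxa1/2 peak. The third widest, chr11:51282201-51287400 (5200 bp), also had 1 deleted-tumor Foxa1/2 peak, with H3K27me3 over 50.0% in deleted tumors. Those at chr2:157297201-157302600 (5400 bp), chr14:30827001-30832000 (5000 bp) and chr3:30233001-30237800 (4800 bp) had no peak. From the widest down, the 5 widest gained islands were thin, at density percentiles of 0.321, 0.0176, 8.67, 1.37 and 2.23 in their list. The densest gained islands, chr8:19984201-19985000, chr18:34698001-34698400 and chr8:47628601-47629600, were at most 1000 bp wide.

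Lost islands mostly lay singly or in short runs. The 17678 lost islands formed 11727 runs of neighbours in the positive list, of which 8140 were single islands, and 231 runs of at least 5 held 1442 islands. The longest, chosen after its value was seen, held 17 consecutive islands between chr1:113840401 and 117998600, a span of 4158200 bp of which these islands covered 35200 bp, and 12 of them were unmarked. Gained islands formed 9 runs of at least 5, the longest of 7. These counts of runs were not scaled for the number of islands lost or gained.

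Priming and activity were then followed within each tumor type's own marks. Of the 18390 positive-tumor islands without an active mark in positive tumors, 55.0% had neither H3K4me1 nor an active mark in deleted tumors, 34.9% stayed primed and 8.79% gained H3K27ac alone. Of the 26554 islands with H3K27ac but no H3K4me3 in positive tumors, 54.1% kept that state, 19.6% stayed under H3K4me1 without an active mark and 18.1% had neither H3K4me1 nor an active mark. Islands with both active marks kept H3K4me1 in 97.9% of cases (97.7 to 98.0). Loss of H3K4me1 was thus rare at islands with promoter and active marks and common at islands with H3K4me1 alone. Width was not held level here. Among islands that kept H3K4me1, its median was 3800 bp with H3K27ac in both tumor types and 1800 bp with no active mark in either.

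The factor content of islands that switched state differed by direction. Here activity means H3K27ac, with or without H3K4me3, and primed means neither mark; switches of H3K4me3 alone (762 islands that lost and 77 that gained it) were left out. Of the 6420 positive-tumor islands that kept H3K4me1 and went from active to primed, 30.1% (29.0 to 31.2) held an Nkx2-1 peak, 22.8% (21.8 to 23.8) a lost and 0.779% a gained Foxa1/2 peak. Of the 1695 that went from primed to active, 3.24% (2.50 to 4.20) held an Nkx2-1 peak, 2.48% a lost and 15.8% (14.1 to 17.6) a gained Foxa1/2 peak. Islands primed in both tumor types, 6418 in number, had 7.32% with Nkx2-1, 6.36% with lost and 2.31% with gained Foxa1/2 peaks. Islands active in both, 41049 in number, were wider (median 3800 bp against 2600 bp for the first and 1400 bp for the second group) and held Nkx2-1 in 39.8% of cases. Per Mb of island, overlaps with Nkx2-1 peaks numbered 105.6 where activity was lost, 100.5 where it was kept and 19.2 where it was gained. Overlaps with gained Foxa1/2 peaks numbered 2.50, 12.7 and 89.2 per Mb in the same order.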

How the data were processed

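Lung tumors were profiled by chromatin immunoprecipitation and sequencing, and reads were single-end, 40 to 50 nucleotides long per the labels. Bowtie, MACS 1.4.2, SICER 1.1 and build mm9 are named, without roles, in the submitters' processing notes. Per the file names, islands had 200 bp windows, an FDR of 0.01 and a gap setting of 600 bp for H3K4me1 and H3K27me3 and of 200 bp for H3K27ac and H3K4me3, and peaks were called at a p of 1e-06, on merged libraries. Each deposited island carries the authors' read count, not scaled for depth, and each deposited peak the score of the authors' caller, at least 60, which was not used here. The 22 files of 11 groups were identical in pairs, and 1 of each was used; the 9 input samples were not used. Per the labels 1 input served both the male histone libraries of positive tumors and an Nkx2-1 library.

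Island ends were read as the last base. Overlap meant at least 1 bp. Density is count per kb of width, ranked among the same one-to-one islands. Shares have 95% Wilson intervals. No test was possible with 1 list per tumor type. Matching was tested on simulated lists. Named regions were the 5 widest and 3 densest unmarked lost or gained islands, the 3 with most pieces, the 3 largest rank rises and falls among islands of at least 2000 bp, and the 3 widest of each list. The members, lists and rules were chosen with earlier results of these data known. Alternatives changed overlap, list length, minimum width, joining, mark distance and ranking. Computation used Python 3.11.15, numpy 2.4.6, pandas 2.3.3, scipy 1.17.1 and matplotlib 3.10.9.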

Additional observations from a re-analysis of the deposited data

Results flagged for a closer look

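Chromosome X, outside the comparisons above, also held H3K4me1 islands, 2091 in positive and 1528 in deleted tumors.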

How the results depend on the processing

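No paired analysis was possible because both files of a group hold the same merged list. Of 35 alternative values 12 stayed within the main interval or 1.5 times the main count and 23 moved. Whether any of them changed direction was not tested. An overlap of 50% of the shorter island gave 23.1% lost, 8.62% gained, 5.68% split and 12.4% merged. The upper 50% of each list by reads gave 9.49% gained, 5.52% split, 13.9% merged, 42.8% narrower, 27.3% moved in rank, and 1294 lost and 90 gained unmarked islands. Equal list lengths gave 17.1% lost, 16.1% gained and 3869 gained unmarked islands. Islands of at least 1000 bp gave 22.4% lost and 9.30% gained. Joining islands under 2000 bp apart gave 22.4% lost, 7.84% gained, 5.63% split and 9.97% merged. Ranking by read count gave 14.0% moved, percentiles within whole lists 22.7% and summed connected groups 22.6%. Lost islands lay mostly among thin islands, with 56.2% of the thinnest 10% of the positive list lost; what depth adds to this was not tested, since library sizes are not known here.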
